A study of Mus musculus with 6 samples.

Results

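The Zfp genes are the mouse genes whose symbol is Zfp followed by a number, a name given to proteins that carry zinc fingers. They were taken as every row of the deposited gene count table with a symbol of that form, and 244 of the table's 10551 genes met this rule. Levels were measured by RNA sequencing on an Ion Proton instrument in bone marrow-derived macrophages, cells grown out of marrow in culture, from C57BL/6J mice. Of 6 libraries, 3 came from cells labelled as a macrophage-specific knockout of Dhps (Dhps_delta_Myel) and 3 from cells with the genotype control. Dhps encodes deoxyhypusine synthase, which carries out the first step in making hypusine, an amino acid found on the translation factor eIF5A. By its title, the series concerns this enzyme and the pro-inflammatory phenotype of these cells. Stimulus, growth factor, Cre driver, age and the deleted exons are not named in the labels, nor is it stated that libraries within a genotype are from different mice or cultures. All p-values thus reflect the variation among these 6 libraries alone, and this may be technical.

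A zinc finger is a short fold held together by a zinc ion. In the commonest kind, C2H2, a pair of cysteines and a pair of histidines hold the ion, and fingers in a row read DNA base by base. Many C2H2 proteins also carry a KRAB domain, which recruits the corepressor Trim28 and through it the histone methyltransferase Setdb1; these proteins are best known for silencing endogenous retroviruses and other repeats, and their genes lie in clusters of tandem copies. Fingers of the CCCH kind bind RNA instead, and the best known member in macrophages, Zfp36 (tristetraprolin), binds AU-rich elements of cytokine messages and brings about their decay.

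The total count per library lay between 11648710 and 16224818. Dhps, measured first as a check of the labels, had 13.2, 13.6 and 18.3 CPM in the knockout libraries, against 24.1, 20.9 and 23.4 CPM in the control libraries, where CPM are counts per 1000000 scaled between libraries by TMM, a trimmed mean of log ratios. The groups did not overlap, and the log2 fold change, knockout over control, was -0.59 (SE 0.14) with an adjusted p of 0.214 in edgeR's quasi-likelihood test, or 0.033 with the replicate number as a block. Over the whole table, 10 genes rose and 1 fell at an adjusted p under 0.05. Among them were 5 of the 13 measured neutrophil and precursor markers, which rose, and their summed level was 1351 to 1589 CPM in knockout libraries and 845 to 1167 CPM in control libraries. Of 12 macrophage markers only Lyz2, a lysozyme gene, fell, and none of the 12 was at 0. Of 11 stromal markers 6 were measured, 2 of these rose and 4 had a log2 fold change above 0, with a median of 0.22. Their summed level was 582 to 734 CPM in knockout libraries and 637 to 799 CPM in control libraries. Their median level was only 2.57 CPM (upper quartile 3.74), so the sum mostly reflects the highest of them and not the rest. The part of these other cells in the results below was not tested, and in bulk RNA a smaller share of cells of a type cannot be told apart from less RNA per cell.

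None of the 244 Zfp genes passed the adjusted p, against 0.104% of all genes (0.0948% higher and 0.00948% lower). The smallest adjusted p of a member was 0.457. At an unadjusted p under 0.05 stood 11 members (4.51%), against 6.48% of all genes, and DESeq2 likewise called 0 members and put 9 under that mark. Of the 11, 10 were higher and 1 lower in knockout cells, where the shares over all genes were 3.84% higher and 2.64% lower. The 10 include Zfp398 and Zfp759, whose differences are partly set by the floor of the table described below. Over all genes, 31 met that floor only in knockout libraries and 3 only in control libraries. The test left room for small changes. The 95% interval of the fold change lay within 2-fold either way for 205 members and within 1.5-fold for 119. The median SE of the log2 fold change was 0.21 for Zfp genes and 0.13 for all genes.

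Zfp genes were long and low. Their summed exon length had a median of 3724 bases (quartiles 2762 and 4875), against 2958 bases for all genes, and 174 members (71.3%) exceeded that median of all genes. The longest were Zfp318 with 13919 bases, Zfp704 with 13844 and Zfp26 with 11407, and the shortest were Zfp688 with 1016, Zfp637 with 1099 and Zfp511 with 1100. Their mean level over the 6 libraries had a median of 5.79 CPM, against 19.5 CPM for all genes. Per kilobase of exon the medians were 1.76 and 6.83 CPM, and 28 members (11.5%) lay above the second of these. Within the family, level per kilobase hardly followed exon length (Spearman rho -0.067 across 244 genes, which are not independent replicates). 87 members (35.7%) exceeded 10 CPM, against 65% of all genes, and 35 lay under 2 CPM. Every gene of the table exceeded 1 CPM in at least 3 libraries, so lower members are not analysed here. Zfp398 was the 1 member that met this floor only in knockout libraries, and its difference is therefore partly set by that floor. The floor also bears on members over 1 CPM in every library of a genotype but in few of the other. Examples are Zfp759, higher in knockout, and Zfp14, lower in knockout.

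**Figure D1:**
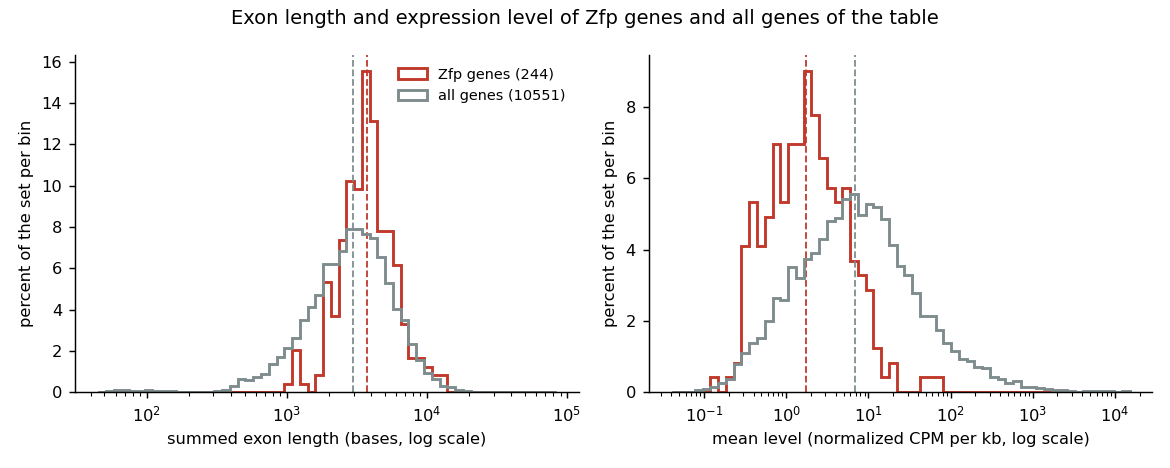
Summed exon length in bases (left) and mean level in normalized CPM per kb (right), both on log scales, as the percent of each set per bin, for 244 Zfp genes and all 10551 genes. Dashed lines mark the medians: 3724 and 2958 bases for Zfp genes and all genes, and 1.76 and 6.83 CPM per kb.

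The 8 members with the highest level per kilobase held 29.0% of the family's summed level per kilobase. Zfp36 led with 66.6 CPM per kb. Zfp263, a sequence-specific C2H2 factor, followed with 54.7 and Zfp800 with 42.6. The next were Zfp207, which binds spindle microtubules and the checkpoint protein Bub3, with 21.9, Zfp710 with 18.9, Zfp131, a BTB-domain factor, with 16.6, the RNA-binding protein Zfp106 with 13.86 and Zfp281, a factor known from embryonic stem cells, with 13.85. For Zfp106, 26.0% of the annotated exon length overlaps Gm26899 on the other strand, and since the use of strand in counting is not given in the sources used here, reads of the pair cannot be told apart. At the other end stood Zfp316 with 0.146, Zfp329 with 0.203, Zfp760 with 0.244 and Zfp619 with 0.246 CPM per kb.

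**Figure D2:**
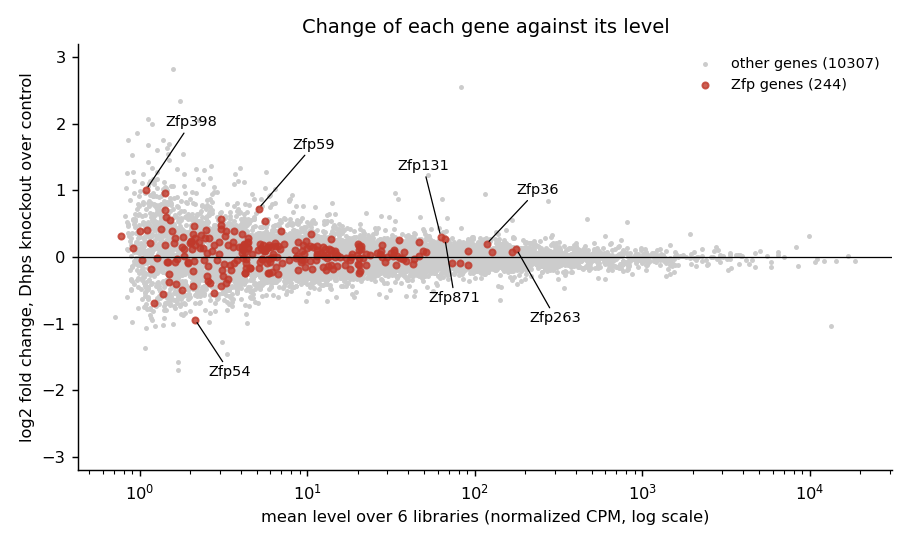
Log2 fold change, Dhps knockout over control, against mean level in normalized CPM on a log scale; red points are the 244 Zfp genes and grey points the other 10307 genes. Zfp genes lie between -0.94 (Zfp54) and 1.01 (Zfp398), with the wide values at low levels.

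As a family the members sat slightly above 0. Their median log2 fold change was 0.050 (quartiles -0.076 and 0.18) and 145 of 244 (59.4%) were above 0, against a median of -0.0044 and 48.7% for all genes. Their summed level was 3353, 3430 and 3496 CPM in knockout libraries, against 3101, 3353 and 3500 CPM in control libraries. That is 3427 ± 71.6 CPM in knockout and 3318 ± 201 CPM in control cells (SD, n = 3 each), a ratio of 1.03 that is smaller than the spread between control libraries. Control library 1 was the lowest and control library 3 the highest, so the groups overlapped. The family's shift depended on single libraries: the median was 0.0041 (51.2% above 0) without control library 1, 0.018 without knockout library 3 and 0.093 without control library 3. With a trend on exon length removed the median was 0.027, and without scaling by TMM it was 0.071. The groups did not overlap for 16 members that were higher and 4 that were lower (Zfp14, Zfp317, Zfp605 and Zfp607), against 5.73% and 5.45% of all genes. Without control library 1 the counts were 25 and 31, against 12% and 11.5% of all genes with the same 5 libraries.

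Control library 1 was low for Zfp genes more often than for the genes of the table. For each gene the deviation of a library's log2 level from the mean over the 6 libraries was taken. The median deviation over Zfp genes was -0.0026, 0.017 and 0.077 in knockout libraries 1 to 3 and -0.13, 0.025 and 0.055 in control libraries 1 to 3. Over all genes it lay between -0.00011 and 0.0057 in every library, but scaling by TMM tends to keep this median close to 0. Genes of low level in general were less low in control library 1. The median there was -0.0070 over the lowest tercile of all genes by level. It was -0.025 over those of them that were also in the longest tercile by exon length. Control library 1 was the lowest of the 6 libraries for 95 Zfp genes (38.9%), against 18.8% of all genes. It was the highest for 21 Zfp genes (8.61%), against 20.7% of all genes. Its level was under 0.7 of the mean of the other 5 libraries for 48 Zfp genes (19.7%), against 5.13% of all genes. Among control libraries it also had the highest summed neutrophil marker level (1167 CPM) and the lowest summed macrophage marker level (22985 CPM). Most of the macrophage sum was Lyz2, at 16267 CPM in this library and 19080 and 18770 CPM in control libraries 2 and 3. The lower sum therefore does not show that the other macrophage markers were lower. The part of these in the pattern, which was noticed in these data, was not tested.

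**Figure D3:**
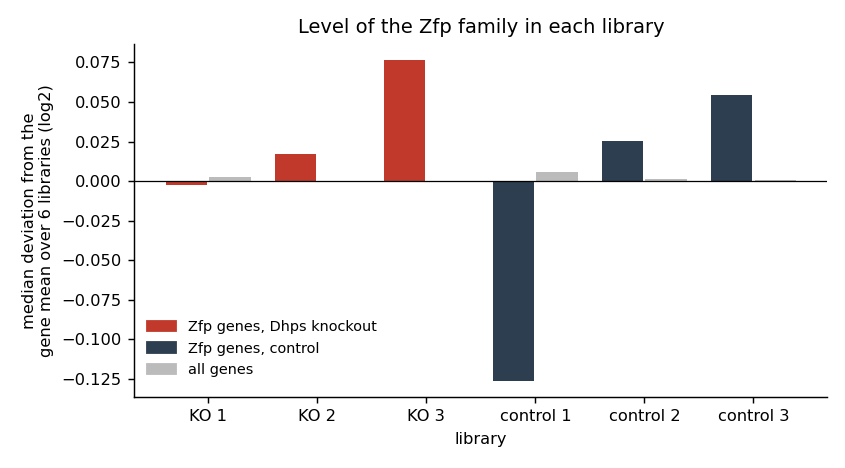
Median deviation of a library from each gene's mean over the 6 libraries, in log2 units, for 244 Zfp genes (red, Dhps knockout; dark blue, control) and for all genes (grey). Control library 1 stands at -0.13 for Zfp genes, and the grey bars stay close to 0 in every library, where scaling by TMM tends to keep them.

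The low values of that library were most frequent in KRAB zinc fingers. Proteins were translated from the GENCODE M21 coding transcripts (GRCm38, the assembly also named mm10), and 242 of 244 symbols were found; Zfp191 and Zfp607 were not. Of these, 121 had a KRAB-type sequence with at least 2 C2H2 fingers, 92 had such fingers without it, 2 had CCCH fingers and 27 had fewer than 2 fingers of the spacing searched. How many KRAB genes the sequence search missed was not measured, so the class without KRAB may hold some. A member carried a median of 10 C2H2 fingers, 12 in the KRAB class and 9 in C2H2 proteins without KRAB. Median levels per kilobase were 1.23 CPM in the KRAB class and 2.31 CPM in the C2H2 class without KRAB. In control library 1 the median deviation was -0.22 in the KRAB class, -0.090 in the C2H2 class without KRAB and -0.067 in the 27 others. It was -0.17 in 17 C2H2 genes with a KRAB sequence but another name, -0.064 in 14 Zkscan and Zscan genes, -0.053 in 11 Klf genes, +0.059 in 39 Zbtb genes and +0.037 in 15 Zc3h genes. Control library 1 was the lowest library for 59 of the 121 KRAB members (48.8%) and the highest for 7. It was also the lowest for 27 of the 92 in the C2H2 class without KRAB (29.3%). For the 17 KRAB genes of other names the number was 6 (35.3%). Both shares exceed the 18.8% of all genes, so the pattern was not limited to KRAB members. The median log2 fold change of the KRAB class was 0.039 with all libraries and -0.031 without control library 1, with 53 of 121 above 0, so its direction flipped.

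By position, Zfp genes were most numerous on chromosome 7 with 54, chromosome 17 with 37 and chromosome 13 with 25 members. With neighbours less than 1 Mb apart, 101 members formed 11 clusters of 5 or more, which held 75 of the 121 KRAB members. The largest were 17 members on chromosome 13 between 67038594 and 67755134, of which 16 were KRAB genes, and 17 members on chromosome 17 between 21008941 and 23564226, also with 16 KRAB genes. Control library 1 was the lowest library for 12 of the 17 on chromosome 13, for 10 of the 17 on chromosome 17 and for 8 of 12 in another chromosome 17 cluster between 32765497 and 33631714. It was the highest for 0 in each of these. In the other 8 clusters it was the lowest for 15 of 55 members (27.3%), from 1 of 9 in a chromosome 7 cluster and 1 of 8 on chromosome 6 to 3 of 5 in another on chromosome 7. On chromosome 9, in a cluster of 6 KRAB genes, it was the lowest for 2. Of the 95 members for which it was the lowest, 50 lay outside all clusters. By chromosome its median deviation over Zfp genes was -0.28 on chromosome 13, -0.23 on chromosome 17 and -0.022 on chromosome 7. The median log2 fold change of members on chromosome 13 was 0.10 with all libraries and -0.058 without control library 1, and on chromosome 17 it was 0.14 and 0.064.

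Single members, chosen after their values were seen, show the size of this. Zfp729b had 12.2, 11.2 and 12.8 CPM in knockout libraries, against 7.28, 12.6 and 12.5 CPM in control libraries. The search found no KRAB sequence in Zfp729b, so it counts in the C2H2 class without KRAB. Zfp874a had 6.74, 6.43 and 5.70 CPM in knockout libraries, against 4.07, 7.33 and 6.96 CPM in control libraries. Zfp386, on chromosome 12 and outside the clusters, had 10.5, 9.53 and 9.32 CPM in knockout libraries, against 6.5, 11 and 10.9 CPM in control libraries. In each of these the other 2 control libraries lay at or above most of the knockout libraries, and 1 control library lay far below all of the rest. For 17 members over 10% of the 100-base words of their exons also occur in another gene, so their counts are uncertain. In Zfp729b the share is 38.3%. The gene that shares most with it is Gm49345, an annotated gene whose exons overlap its own. In Zfp955a the share is 26.5%, and the gene that shares most is Zfp955b, a member whose exons do not overlap it.

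Zfp131 had the smallest p of all members. It had 68.7, 70.0 and 69.1 CPM in knockout libraries, against 59.4, 52.4 and 56.6 CPM in control libraries. The groups did not overlap, and the knockout values lay closer together (69.3 ± 0.69 CPM, against 56.1 ± 3.53 CPM, SD, n = 3 each). The log2 fold change was 0.30 (SE 0.093, 95% interval 0.11 to 0.50) with an adjusted p of 0.457 in edgeR's quasi-likelihood test, and it stayed between 0.26 and 0.35 when each library was left out in turn. Of the members with an unadjusted p under 0.05 it was also among the 4 with the highest levels, with Zfp36, Zfp871 and Zfp706.

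The other members higher in knockout cells at an unadjusted p under 0.05 did not pass the adjustment either. Zfp871, a gene of 10850 exon bases in a chromosome 17 cluster, had 69.5, 77.9 and 70.3 CPM in knockout libraries, against 50.6, 65.3 and 64.4 CPM in control libraries. Its log2 fold change was 0.27 (adjusted p = 0.673) and was 0.16 without control library 1. Zfp706 had 53.9, 49.0 and 47.1 CPM in knockout libraries, against 40.2, 46.3 and 41.3 CPM in control libraries, a log2 fold change of 0.23 (adjusted p = 0.737). In both genes all knockout libraries were above all control libraries.

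Zfp59 had 8.12, 5.35 and 5.70 CPM in knockout libraries, against 2.71, 4.82 and 4.0 CPM in control libraries (log2 fold change 0.73, adjusted p = 0.547). Of its 100-base words 28.5% also occur in another gene, and the gene that shares most is Gm7452. Zfp942 had 5.91, 6.90 and 6.93 CPM in knockout libraries, against 2.86, 5.46 and 5.30 CPM in control libraries, and its log2 fold change of 0.54 (adjusted p = 0.737) was 0.29 without control library 1. Both are KRAB genes in clusters, and in both control library 1 was the lowest of all. Zfp759 had 1.99, 1.24 and 2.39 CPM in knockout libraries, against 1.21, 0.900 and 0.783 CPM in control libraries (log2 fold change 0.96, adjusted p = 0.672). Its control libraries alone would not have met the floor of the table, so its difference is partly set by that floor. Zfp398 had 1.58, 1.55 and 1.23 CPM in knockout libraries, against 0.928, 0.386 and 0.870 CPM in control libraries (log2 fold change 1.01, adjusted p = 0.677). It was the 1 member beyond a 2-fold difference either way. Zfp703, a transcriptional corepressor, had 13.3, 12.2 and 9.93 CPM in knockout libraries, against 9.14, 8.23 and 10.6 CPM in control libraries (log2 fold change 0.35, adjusted p = 0.757), and here the groups overlapped.

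Zfp54 was the 1 member lower in knockout cells at an unadjusted p under 0.05. It had 1.17, 0.852 and 2.27 CPM in knockout libraries, against 1.93, 2.44 and 4.17 CPM in control libraries, so the groups overlapped. Its log2 fold change was -0.94 (SE 0.38, adjusted p = 0.678), and it was -0.58 without control library 3 and -1.46 without knockout library 3. The next in order were Zfp746 (log2 fold change -0.25), which is the parkin substrate PARIS, a repressor of Ppargc1a, Zfp14 (-0.69), Zfp251 (-0.44), Zfp867 (-0.54), Zfp438 (-0.55), Zfp677 (-0.49) and Zfp113 (-0.44). Their adjusted p ran from 0.804 for Zfp746 to 0.876 for Zfp113, and of the 8 the groups were apart in Zfp14.

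**Figure D4:**
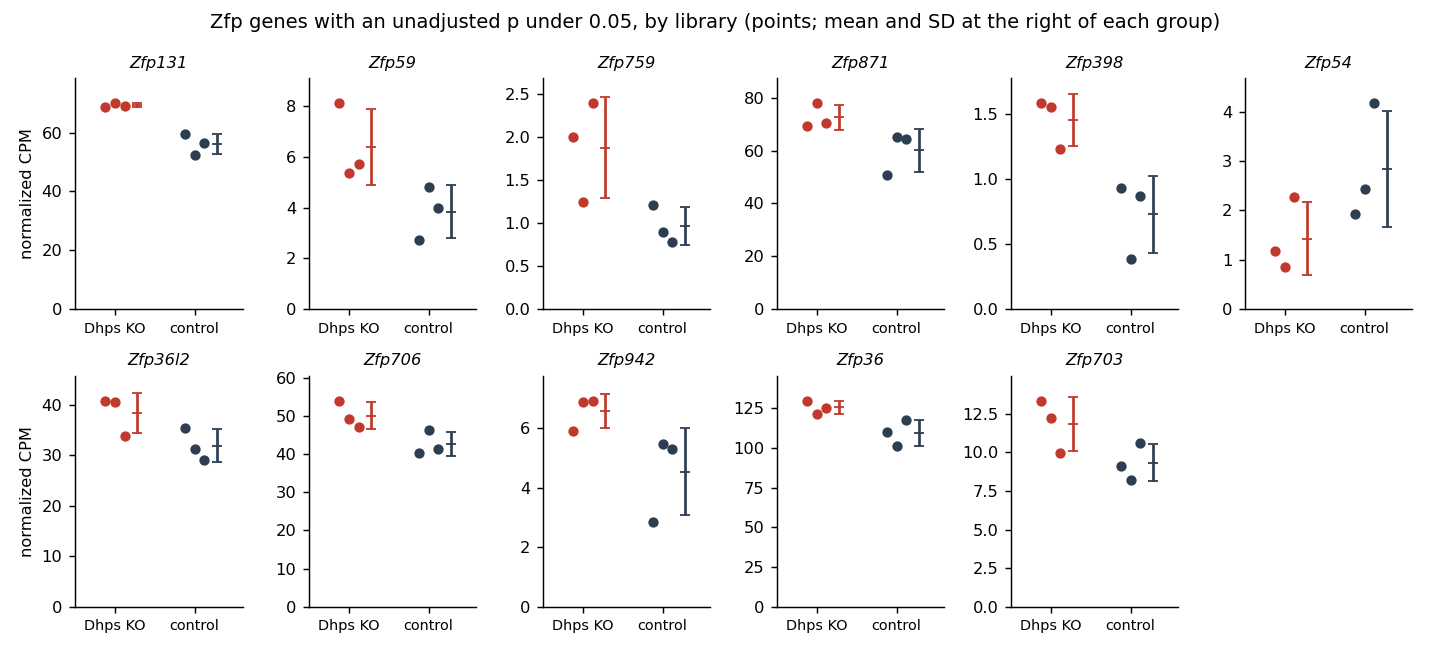
Normalized CPM in each library for the 11 Zfp genes with an unadjusted p under 0.05, Dhps knockout in red and control in dark blue; bars at the right of each group are the mean and SD of 3 libraries. Groups are apart in 8 panels and overlap in Zfp54, Zfp36l2 and Zfp703.

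Both measured CCCH genes were among those 11. Zfp36 had 129.8, 122 and 125 CPM in knockout libraries, against 109.9, 101 and 118 CPM in control libraries. The groups did not overlap, and the log2 fold change was 0.20 (SE 0.090, 95% interval 0.0066 to 0.39, adjusted p = 0.749). Zfp36l2, a relative with the same activity on AU-rich elements, had 40.8, 40.6 and 33.8 CPM in knockout libraries, against 35.5, 31.2 and 29.1 CPM in control libraries. Its groups overlapped by 1 library each way, and the log2 fold change was 0.26 (SE 0.11, adjusted p = 0.724). Neither gene was low in control library 1 alone: their median deviation there was -0.034, with -0.18 and -0.13 in control libraries 2 and 3.

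Zfp36 lies on chromosome 7 (28376784 to 28379228, minus strand, mm10). The 250 bases before its RefSeq start (GRCm38.p6, chr7:28379229-28379478, minus strand) are shown because it is the member with the highest level per kilobase. They hold 18 CpG dinucleotides and 1 GC box, GGGCGG read on the other strand and set in capitals:

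Zfp36: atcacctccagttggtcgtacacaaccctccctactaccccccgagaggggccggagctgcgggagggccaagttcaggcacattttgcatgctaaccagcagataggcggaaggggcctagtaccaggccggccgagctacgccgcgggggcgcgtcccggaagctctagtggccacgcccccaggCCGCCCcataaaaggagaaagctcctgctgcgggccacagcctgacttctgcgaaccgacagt

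The partners and targets of Zfp36 were read from lists of known genes. Of 37 AU-rich element decay factors 36 were measured and 0 passed the adjusted p; their median log2 fold change was 0.039 and 24 were above 0. The smallest p belonged to Tial1, which binds AU-rich RNA, with 18.0 ± 1.86 CPM in knockout and 14.0 ± 0.753 CPM in control cells (SD, n = 3 each). Its log2 fold change was 0.36 (adjusted p = 0.594). Zc3h12a, an RNA-cutting enzyme also called Regnase-1, had a log2 fold change of 0.28, the deadenylase Cnot6l 0.24 and the 14-3-3 protein Ywhab 0.21. Of 18 transcripts known as tristetraprolin targets 17 were measured, with 0 called, a median log2 fold change of -0.021 and 6 above 0. The list includes Zfp36 itself, which is counted among those 6. Among them Lif had 10.7 ± 1.0 CPM in knockout and 7.32 ± 1.35 CPM in control cells (log2 fold change 0.54, adjusted p = 0.495), and Cxcl1 had 34.5 ± 1.18 CPM in knockout and 43.9 ± 6.90 CPM in control cells (-0.35, adjusted p = 0.542), each SD with n = 3. Ccl2 stood at -0.31 (adjusted p = 0.723), so the list held differences in both directions and none that passed.

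Members that act on RNA, the ribosome or translation were of interest because Dhps acts on a translation factor. All 10 on that list were measured, 0 passed, their median log2 fold change was 0.056 and 6 were above 0. Zfp598, the ubiquitin ligase that marks collided ribosomes, had 21.3, 18.7 and 17.6 CPM in knockout libraries, against 27.5, 19.9 and 18.9 CPM in control libraries. Its log2 fold change of -0.21 (SE 0.15, adjusted p = 0.880) was -0.019 without control library 1. Zfp622, a late maturation factor of the large ribosomal subunit known from its yeast counterpart, had 21.5, 22.5 and 20.7 CPM in knockout libraries, against 29.3, 21.5 and 19.4 CPM in control libraries. Its log2 fold change was -0.12 (SE 0.14) and +0.071 without control library 1. In these 2 genes control library 1 was the highest of the 6 libraries, the opposite of what was seen in KRAB members.

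Of the ubiquitin and SUMO ligases, Zfp91, which takes part in noncanonical NF-kB signalling, had 39.5, 37.2 and 40.4 CPM in knockout libraries, against 32.8, 39.3 and 38.7 CPM in control libraries (a log2 fold change of 0.081 with an SE of 0.10). Zfp451, a SUMO ligase, had a log2 fold change of 0.037 (SE 0.13). Among 12 measured promoter factors 0 passed and 5 were above 0, with a median of -0.015; besides Zfp131, the smallest p belonged to Zfp384 (log2 fold change 0.17, adjusted p = 0.888) and Zfp263. Zfp263 had 180.9, 179 and 193 CPM in knockout libraries, against 161, 171 and 177 CPM in control libraries (a log2 fold change of 0.12 with an SE of 0.086, adjusted p = 0.893). Its groups were apart, though knockout library 2 and control library 3 lay close together.

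Of 6 measured chromatin reader members 0 passed, with a median log2 fold change of 0.039. Zfp687 stood at 0.18 and Zfp462 at -0.19. Of 10 listed silencers of retroelements and imprinted genes 5 were measured and 0 passed, with a median of 0.011. Zfp809, which represses murine leukemia proviruses through their primer binding site, had 4.2, 3.87 and 3.37 CPM in knockout libraries, against 3.71, 3.99 and 2.43 CPM in control libraries (a log2 fold change of 0.16 with an SE of 0.25). Zfp568, a repressor of a placental Igf2 transcript, had a log2 fold change of -0.074 (SE 0.11), and Zfp932, which binds endogenous retroviruses, 0.18 (SE 0.33). Zfp445, which guards imprints, had 30.7, 37.0 and 35.5 CPM in knockout libraries, against 33.7, 33.5 and 35.3 CPM in control libraries. These intervals differ in width: that of Zfp445 ran from -0.21 to 0.23, and that of Zfp932 from -0.51 to 0.87. Of 9 factors known from other tissues 3 were measured, Zfp703 and, at 0.29 and 0.20, Zfp467 and Zfp503, the second a corepressor related to Zfp703; none passed.

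The partners through which KRAB proteins silence DNA were measured in 24 of 26 cases, with 0 called, a median log2 fold change of 0.045 and 13 above 0. Trim28 had 36.0, 37.3 and 34.8 CPM in knockout libraries, against 39.1, 36.8 and 34.6 CPM in control libraries (a log2 fold change of -0.033 with an SE of 0.099), and Setdb1 stood at 0.085 (SE 0.14). In control library 1, in which KRAB members were low, the 2 genes went opposite ways. Trim28 was highest there, by a small margin over the 37.3 CPM of knockout library 2. Setdb1 was lowest there, with 13.2 CPM against 14.0 to 17.7 CPM in the other libraries. A link of either gene to the KRAB members was not tested. Atf7ip, a cofactor of Setdb1, had 7.22, 7.36 and 7.91 CPM in knockout libraries, against 5.50, 5.98 and 5.65 CPM in control libraries (log2 fold change 0.39, adjusted p = 0.749). The remodeller Smarcad1 stood at 0.23, the histone chaperone Daxx at -0.19 and Uhrf1, which maintains DNA methylation, at -0.67. Uhrf1 had 6.57 CPM in control library 1, against 1.86 to 3.31 CPM in the knockout libraries and 2.76 and 2.96 CPM in the other control libraries, and its log2 fold change was -0.15 without that library.

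Related families likewise held no called member. None of 39 Zbtb, 14 Zkscan and Zscan, 15 Zc3h and 11 Klf genes passed the adjusted p. Their median log2 fold changes were 0.051, 0.090, 0.0033 and 0.086, and 24, 13, 8 and 10 of them were above 0 in that order. Without control library 1 the medians were 0.054 for Zbtb, 0.12 for Zkscan and Zscan, 0.019 for Zc3h and 0.14 for Klf genes. The medians of these families thus did not move down with that of the Zfp genes. The numbers above 0 were then 24, 11, 9 and 9 in the same order, so 2 families had fewer. The median deviation in control library 1 was +0.059, -0.064, +0.037 and -0.053 in that order.

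The size of a member's difference went with its level. Between the absolute log2 fold change and the mean level the Spearman rho was -0.46 across 244 members. The median of the signed log2 fold change was 0.13 in the lowest tercile of members by level, 0.081 in the middle and 0.033 in the highest. In the terciles of all genes by level it was 0.024, -0.0088 and -0.013 in that order. The median coefficient of variation within a group was 14.7% in knockout and 16.4% in control cells for Zfp genes, against 10.2% and 10.5% for all genes. For exon length the rho with the log2 fold change was 0.0094 in Zfp genes and 0.12 across all genes.

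Promoters were taken from RefSeq (GRCm38.p6, 250 bases before to 50 after a start), where 206 members had 252 promoters. A GC box, GGGCGG on either strand, was in 49.2% of Zfp promoters, against 63.3% for all genes of the table and 35.7% of every promoter listed. A TATA box, TATAAA on either strand, was in 4.37%, against 6.78% and 13.6%. The median number of CpG dinucleotides was 16, against 21 and 7. Across the 206 members the number of CpG had a Spearman rho of 0.32 with level per kilobase and of 0.044 with the log2 fold change. The first 7 letters of the site read by Zfp143, itself a member, ACTACAA on either strand, were in 16 Zfp promoters (6.35%) of 15 genes, against 4.39% for the table and 3.24% of every promoter. The letters were chosen after longer forms of the site had been tried on these promoters. Of 15 distinct windows 10 hold CCCA within 12 bases after the match. From the 15, 5 that do and 1 that does not (Zfp874b) are shown so that the flanks can be compared, each read on the strand of the match with the searched letters in capitals:

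Zfp1: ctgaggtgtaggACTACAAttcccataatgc
Zfp128: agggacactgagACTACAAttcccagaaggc
Zfp180: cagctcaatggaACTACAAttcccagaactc
Zfp58: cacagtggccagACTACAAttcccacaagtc
Zfp691: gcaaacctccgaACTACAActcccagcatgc
Zfp874b: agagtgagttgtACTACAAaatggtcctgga

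They lie at chr8:111643410-111643440 (Zfp1, minus strand), chr7:12881155-12881185 (Zfp128, minus), chr7:24081867-24081897 (Zfp180, minus), chr13:67500530-67500560 (Zfp58, plus), chr4:119174356-119174386 (Zfp691, minus) and chr13:67484324-67484354 (Zfp874b, plus). Of the 15 genes 7 had a log2 fold change above 0, none passed the test, and the median was -0.0091. Zfp143 had 21.9, 22.3 and 22.4 CPM in knockout libraries, against 17.6, 21.8 and 20.1 CPM in control libraries. Its groups did not overlap, and the log2 fold change was 0.16 (SE 0.12, adjusted p = 0.893).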

How the data were processed

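The authors deposited raw counts for each gene, whole and not normalized, beside its exon coordinates and total exon length. Per the submitters' processing notes the tools were edgeR, featureCounts, Subread 1.5.0 and STAR 2.4.2a, and the build was mm10; the annotation and strand setting are not given in the sources used here. All 10551 genes were fitted with edgeR 4.0.16 (R 4.3.3), with TMM scaling, genotype as the only term and the two-sided quasi-likelihood test. P-values were adjusted over all genes with the Benjamini-Hochberg method and called under 0.05. No gene was lost to filterByExpr (minimum count 10). The SE is the log2 fold change divided by the square root of F. Level per kb is normalized CPM over the deposited length. Fingers were counted as C-x2-C-x12-H-x3-4-H. KRAB-type sequences, found by pattern, also occurred in 5 of 9492 table genes whose protein had no finger. The lowest count of a member in a library was 3.

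The members, gene lists and tests were chosen with earlier results of these data known. Named members were Dhps, the 8 each way with the smallest p, the 8 with the highest and 4 with the lowest level per kb, the 3 longest and 3 shortest, and members of fixed roles; up to 4 genes were named per partner list. Zfp143, Trim28, Setdb1, Zfp445, members at an unadjusted p under 0.05 beyond the rule, and the members shown for control library 1 were named after their values were seen. Alternatives were DESeq2 1.42.0, limma-voom (limma 3.58.1), other scaling, other filters, an exon length trend, a replicate block and leaving out each library. The method was tested on simulated counts. Replicate numbers recur in both groups. The deviations of same-numbered libraries correlated at 0.16, 0.022 and 0.16, and those of differently numbered libraries at -0.21 to 0.079. These values do not settle whether the numbers pair libraries. The labels state no pairing, so the main fit used none and the block was run as an alternative.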

Additional observations from a re-analysis of the deposited data

How the results depend on the processing

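Of the 244 Zfp genes 0 were called under any of the 14 other settings run: DESeq2 size factors, no scaling, no filter, a stricter filter, an exon length trend, DESeq2, limma-voom, the replicate block and each library left out. With the replicate number as a block 0 Zfp genes were called and 12 had an unadjusted p under 0.05, and Dhps passed the adjusted p (0.033, log2 fold change -0.61), which it did not without the block. Leaving out each library gave 3 to 12 members at an unadjusted p under 0.05 (4.88% to 7.87% of all genes), a median log2 fold change of 0.0041 to 0.093, 51.2% to 67.6% of members above 0, and 25 to 36 members higher and 6 to 31 lower with groups apart (9.53% to 12% and 9.62% to 11.5% of all genes; fewer libraries make groups easier to part, and this last alternative and the medians of classes, families and chromosomes without control library 1 were chosen after seeing the data). The count at an unadjusted p was 3 without knockout library 2, 6 without control library 2 and 7 without knockout library 1. Dhps stayed between -0.76 and -0.50.

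Of 48 named Zfp genes 13 changed direction when a library was left out, all of them with small or low values. Their ranges were -0.23 to 0.24 for Zfp329, -0.068 to 0.19 for Zfp26, -0.24 to 0.071 for Zfp622, -0.066 to 0.095 for Zfp451, -0.29 to 0.14 for Zfp619, -0.091 to 0.40 for Zfp688, -0.17 to 0.046 for Zfp207, -0.16 to 0.19 for Zfp760, -0.15 to 0.35 for Zfp704, -0.39 to 0.13 for Zfp511, -0.017 to 0.30 for Zfp809, -0.021 to 0.13 for Zfp106 and -0.21 to 0.021 for Zfp281. The cause was not tested. Precision is limited for some members: 39 of 244 have a 95% interval wider than 2-fold on at least 1 side. With 3 libraries per group there are 4 residual degrees of freedom. The parts of depth and of the spread among libraries in these widths were not tested.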
